A study of Mus musculus with 14 samples.

Results

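The mitochondrial respiratory chain passes electrons from NADH and succinate to oxygen through complexes I to IV, and the proton gradient that it builds drives ATP synthase, or complex V. Complex I (NADH dehydrogenase) is built mainly from Nduf gene products, complex II (succinate dehydrogenase) from Sdh products, complex III (cytochrome bc1) from Uqcr products, complex IV (cytochrome c oxidase) from Cox products and complex V from Atp5 products. Most subunits are encoded in the nucleus and imported, while a core set comes from mitochondrial DNA. Mast cells are granule-filled immune cells of the tissues, and they draw on both glycolysis and respiration.

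The nuclear genes of these complexes were taken from the array by name: every non-control probe whose gene name starts with Nduf, Uqcr or Atp5, with Sdh followed by a to d, or with Cox followed by 4 to 8. These were 85 of the 27975 genes on the array, with 120 of its 41174 probes, and each gene was represented by the probe with the highest mean signal. Complex I had 38 genes, complex II had 4, complex III had 7, complex IV had 19 and complex V had 17. The names are those of the array's design, and some have since changed. Atp5f1 is now Atp5pb, Uqcr is Uqcr11, Atp5s is Dmac2l, Atp5sl is Dmac2 and Cox4nb is Emc8, so the last 3 are not subunits of the complex that their old names give. Ndufaf1 and Ndufaf2 are assembly factors of complex I, and Ndufa4 has since been assigned to complex IV. No probe of the array was named for a gene of mitochondrial DNA.

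The study measured RNA of mouse mast cells with and without Pla2g3, which encodes group III secreted phospholipase A2, before and after maturation on fibroblasts. Bone-marrow-derived mast cells (BMMCs) were grown for 4 to 6 weeks with IL-3 as the immature cells, with over 97% of them Kit and FcεRIα positive. For mature cells, BMMCs were kept for 96 h with stem cell factor at 100 ng/ml on Swiss 3T3 mouse fibroblasts and were collected by trypsin and removal of adherent cells at a stated purity over 99%. The strain label, the same for every sample, names C57BL/6 and 129Sv with N3, and ages and the layout of the deleted allele are not given. There were 3 arrays of Pla2g3+/+ BMMCs, 4 of Pla2g3-/- BMMCs, 4 of Pla2g3+/+ cocultured cells and 3 of Pla2g3-/- cocultured cells. The labels number the replicates without naming an animal or culture, so the p-values below measure the spread between these arrays, which may be technical.

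Levels below are log2 of the processed signal relative to the array's 75th percentile, and changes are differences of these levels. All p-values come from limma over the 16012 genes tested, with Benjamini-Hochberg adjustment, and a gene passed the test at an adjusted p under 0.05. The 75th percentile ran from 69.4 to 176 signal units and the share of probes well above background from 42.6% to 55.9%. Mast cell markers were present on every array. Kit, Fcer1a and Cpa3, the stem cell factor receptor, the IgE receptor alpha chain and mast cell carboxypeptidase, were well above background on all 14 arrays. Of the same list, Gata2 and Ms4a2 counted as such on 13 arrays, where a spot left out as an outlier counts as not above background. Their lowest measured levels were 6.39 and 3.96. The levels of Hdc (0.74 to 6.53) and Mcpt4 (0.22 to 8.12) varied widely.

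Several arrays went against their labels. The Pla2g3 probe was at -3.80 ± 0.87 (SD, n = 3) in BMMCs labelled wild type and at -1.57 ± 0.28 (n = 4) in BMMCs labelled knockout, a difference of 2.22 in the direction opposite to the labels. In cocultured cells the probe was at -3.48 ± 0.96 (n = 4) and -2.32 ± 0.78 (n = 3), well above background on 2 and 3 arrays. That difference did not pass either (adjusted p = 0.796). The labels do not say which part of the gene is deleted, so the probe may lie outside it and check nothing. Genotype is therefore given throughout as labelled. Across all genes tested, the array of cocultured cells labelled wild type 3 correlated with those labelled knockout 1 and 2 at r = 0.71 and 0.57, and with those labelled wild type 1, 2 and 4 at 0.09, 0.02 and -0.02. The array labelled knockout 3 correlated with those labelled wild type 1, 2 and 4 at 0.76, 0.43 and 0.41, and with knockout 1 and 2 at 0.02 and -0.00. These are correlations, across genes, of deviations from each gene's mean over all arrays, BMMC arrays included. The genes are not independent replicates. The r values therefore include any shift with coculture that the cocultured arrays share, and its part in them was not tested. The cocultured arrays labelled wild type 3 and knockout 3 both lay on slide 4, which was scanned on another day. Results that rest on them are given with and without this pair, a choice made after the arrays were compared, and no array was relabelled.

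Fibroblast markers moved with coculture. The summed level of the list was 1.11 to 4.63 in BMMCs, 4.20 to 8.85 in cocultured cells labelled wild type and 4.51 to 6.09 in those labelled knockout. Of its 24 genes, 16 were never well above background in either BMMC group, against 1 and 2 in the cocultured groups. In the tests, 18 of 23 rose in the cells labelled wild type and 11 of 23 in those labelled knockout. The summed level of the mast cell list lay between 10.2 and 11.3 on all arrays, and its values by array are given with those of the members. The part of fibroblast RNA in the changes below was not tested, and in such bulk samples fewer cells of a type and less RNA per cell cannot be told apart.

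Upstream sequence was available in RefSeq promoter windows (GRCm38.p6, from 250 bases before to 50 after the start) for 70 of the 85 genes. The motifs searched, on both strands, were the NRF1 core GCATGCGC, the ETS core CCGGAAG bound by GABPA, the YY1 core AAGATGGC, the Sp1 box GGGCGG and the cyclic AMP response element TGACGTCA. NRF1 and GABPA are known as regulators of nuclear respiratory genes. The NRF1 core was present in 10 of the 70 windows, or 14.3%, against 3.05% of all 27025 windows. The ETS core was present in 17, or 24.3% against 9.93%, and the YY1 core in 11, or 15.7% against 3.19%. The Sp1 box was in 30, or 42.9% against 38.2%, and the cyclic AMP response element in 4, or 5.71% against 2.03%. The overlap between motifs was not removed, and a match describes letters, not a bound site.

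3 upstream stretches of 250 bases show the range among the members, with motif matches in capitals. Sdhb was the member that passed the test in both coculture comparisons. Its stretch, at chr4:140961021-140961270 on the plus strand, held 3 Sp1 boxes and an NRF1 core. Ndufa4 had the largest rise of any member, and its stretch at chr6:11907451-11907700 on the minus strand held none of the motif letters. Cox6a1, at chr5:115348959-115349208 on the minus strand, held 5 matches to the NRF1, ETS and Sp1 letters, and did not pass the test in any comparison of all arrays.
Sdhb: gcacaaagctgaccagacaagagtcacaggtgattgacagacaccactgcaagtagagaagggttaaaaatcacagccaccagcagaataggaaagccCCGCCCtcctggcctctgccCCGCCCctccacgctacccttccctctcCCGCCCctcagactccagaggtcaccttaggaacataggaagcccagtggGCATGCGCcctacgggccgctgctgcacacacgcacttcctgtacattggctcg
Ndufa4: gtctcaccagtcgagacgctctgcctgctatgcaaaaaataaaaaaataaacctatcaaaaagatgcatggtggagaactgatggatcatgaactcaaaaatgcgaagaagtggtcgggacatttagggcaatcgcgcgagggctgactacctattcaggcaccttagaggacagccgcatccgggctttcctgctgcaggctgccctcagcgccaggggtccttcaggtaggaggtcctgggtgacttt
Cox6a1: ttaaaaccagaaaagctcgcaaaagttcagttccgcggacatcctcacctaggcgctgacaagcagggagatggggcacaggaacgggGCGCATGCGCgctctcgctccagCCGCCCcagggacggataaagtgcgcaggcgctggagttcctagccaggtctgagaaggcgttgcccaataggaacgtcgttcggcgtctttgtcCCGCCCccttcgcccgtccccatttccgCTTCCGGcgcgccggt

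Of the 85 genes, 80 were tested. The tissue-restricted isoforms Cox4i2, Cox7b2, Cox8b and Cox8c were well above background on 0 of 14 arrays and had no measured level here. Cox7a2l was measured on 7 arrays, at 4.22 to 4.92, because its spots were set aside as outliers by the scanner software on the others. 6 of the 80 tested genes (Atp5b, Atp5h, Atp5o, Cox6c, Ndufb11 and Ndufc1) lacked a value on the array of cocultured cells labelled knockout 2, and Uqcrh lacked one on that of BMMCs labelled wild type 1.

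Coculture changed few of these genes in the cells labelled wild type. 1 of 80 rose and 0 fell, where 6.02% of all genes tested rose and 6.87% fell. The median change of the members was -0.05, beside -0.06 for all genes tested, but 0.44 with the authors' deposited normalized values, and 35 of the 80 changes were above 0. By complex the median change was -0.06 in I, 0.08 in II, -0.00 in III, -0.10 in IV and -0.04 in V. The 4 cocultured arrays lay above all 3 BMMC arrays for 8 members and below them for 7, where the shares over all genes were 10.5% and 14.9%.

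In the cells labelled knockout, 5 of 80 rose and 0 fell, where 7.78% of all genes rose and 6.5% fell, so the count is close to the share of all genes. The 5 were Sdhb of complex II and Ndufa4, Ndufs8, Ndufs4 and Ndufb5 of the complex I names. The median change was 0.49, beside 0.07 for all genes, and kept its sign under the other scalings, at 0.51 with median scaling, 0.15 with quantile normalization, 0.11 with normexp and 0.07 with the authors' deposited values. With all arrays, 71 of 80 changes were above 0. Complex medians were 0.45 in I, 0.34 in II, 0.49 in III, 0.57 in IV and 0.48 in V. The cocultured arrays lay wholly above the BMMC arrays for 5 members (Cox4i1, Ndufa4, Ndufb5, Ndufs8 and Sdhb) and wholly below for 1 (Atp5s), beside 16.1% and 12% of all genes. The count depended on single arrays: 0 members passed without the cocultured array labelled knockout 1, 2 without knockout 2, of which 1 rose, and 50 without knockout 3.

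**Figure D1:**
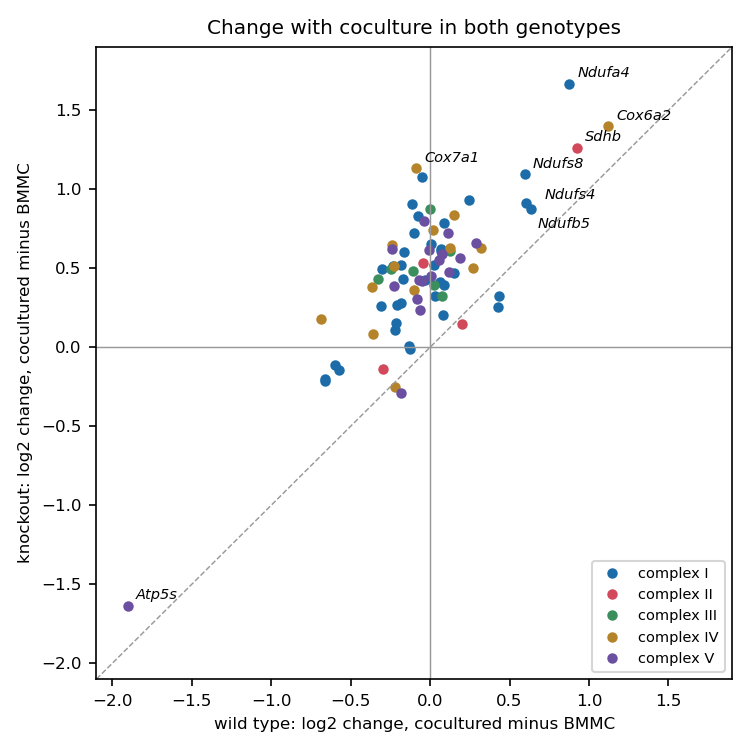
Log2 change with coculture (cocultured minus BMMC) of the 80 tested genes, in cells labelled wild type on the horizontal axis and in those labelled knockout on the vertical axis, coloured by complex, with a dashed line where both are equal. The points centre on a median of -0.05 horizontally and 0.49 vertically, with Ndufa4, Sdhb and Cox6a2, which did not pass, at the upper right and Atp5s at the lower left.

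Sdhb, the iron-sulfur subunit of succinate dehydrogenase that carries electrons from the catalytic subunit toward ubiquinone, rose in both. Its level was 3.05, 3.05 and 2.71 in BMMCs labelled wild type and 3.99, 3.48, 4.24 and 3.72 in the cocultured cells. In the cells labelled knockout it was 3.16, 3.01, 2.74 and 2.63 before and 4.47, 4.37 and 3.61 after coculture. Every cocultured array lay above every BMMC array. The change was 0.92 (SE 0.27, adjusted p = 0.0422) and 1.26 (SE 0.27, adjusted p = 0.0098). Of 30 alternative settings, it passed in 15 for the label wild type and in 27 for the label knockout. Within slides it was 0.94 and 0.89 on slides 2 and 3 in cells labelled wild type, and 1.31, 1.36 and 0.98 on slides 1, 2 and 4 in those labelled knockout. The probe lies at chr4:140522514-140527081 of mm9 in the array's design.

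The other subunits of complex II did not pass the test. Sdha, the flavoprotein with the succinate site, had changes of -0.30 (adjusted p = 0.639) and -0.14 (adjusted p = 0.832), and its second probe gave 0.27 and -0.15, so the probes differed in sign in cells labelled wild type. The membrane anchors were Sdhc, at 0.20 and 0.15, and Sdhd, at -0.05 and 0.53 (adjusted p = 0.281). In cells labelled knockout, Sdhd was at 4.09, 4.18, 3.69 and 3.59 in BMMCs and at 4.69, 4.88 and 3.68 after coculture, so the groups overlapped through knockout 3.

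Ndufa4, a small subunit first assigned to complex I, had the largest rise. Its level was 4.37, 3.97 and 4.09 in BMMCs labelled wild type and 4.34, 3.69, 3.56 and 3.86 in those labelled knockout. The cocultured arrays read 5.38, 4.60, 5.44 and 4.64 for the label wild type and 5.99, 6.04 and 4.55 for the label knockout. All cocultured values lay above all BMMC values. The change was 1.67 (SE 0.38, adjusted p = 0.0121) in cells labelled knockout and 0.88 (adjusted p = 0.156) in those labelled wild type. Within slides it was 1.65, 2.35 and 0.70, and 1.42 and 0.53. Its probe lies at chr6:11850423-11850482 of mm9.

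Ndufs8, an iron-sulfur subunit in the electron path of complex I, was at 0.42, 0.43, -0.07 and -0.22 in BMMCs labelled knockout and at 1.40, 1.42 and 0.88 after coculture. The groups did not overlap, and the change was 1.09 (SE 0.26, adjusted p = 0.0165). In cells labelled wild type it went from 0.33, 0.40 and 0.17 to 1.11, 0.54, 1.24 and 0.68, a change of 0.59. Within slides it was 0.98, 0.99 and 1.1 for the label knockout. The probe lies at chr19:3911200-3911568 of mm9.

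Ndufs4 and Ndufb5 passed narrowly. Ndufs4, an accessory subunit needed for a stable complex I, was at 2.85, 2.85, 3.32 and 2.69 in BMMCs labelled knockout and at 4.25, 3.99 and 3.29 after coculture, a change of 0.91 (SE 0.28, adjusted p = 0.0491). Its array labelled knockout 3 fell just below the highest BMMC array, so the groups overlapped. Ndufb5, a membrane-arm subunit, was at 0.92, 0.91, 0.30 and 0.73 before and at 1.92, 1.80 and 1.05 after, a change of 0.87 (SE 0.27, adjusted p = 0.0494). In cells labelled wild type the changes were 0.60 and 0.64, and every cocultured array lay above every BMMC array for both genes. Under 30 alternative settings each passed in 10.

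**Figure D2:**
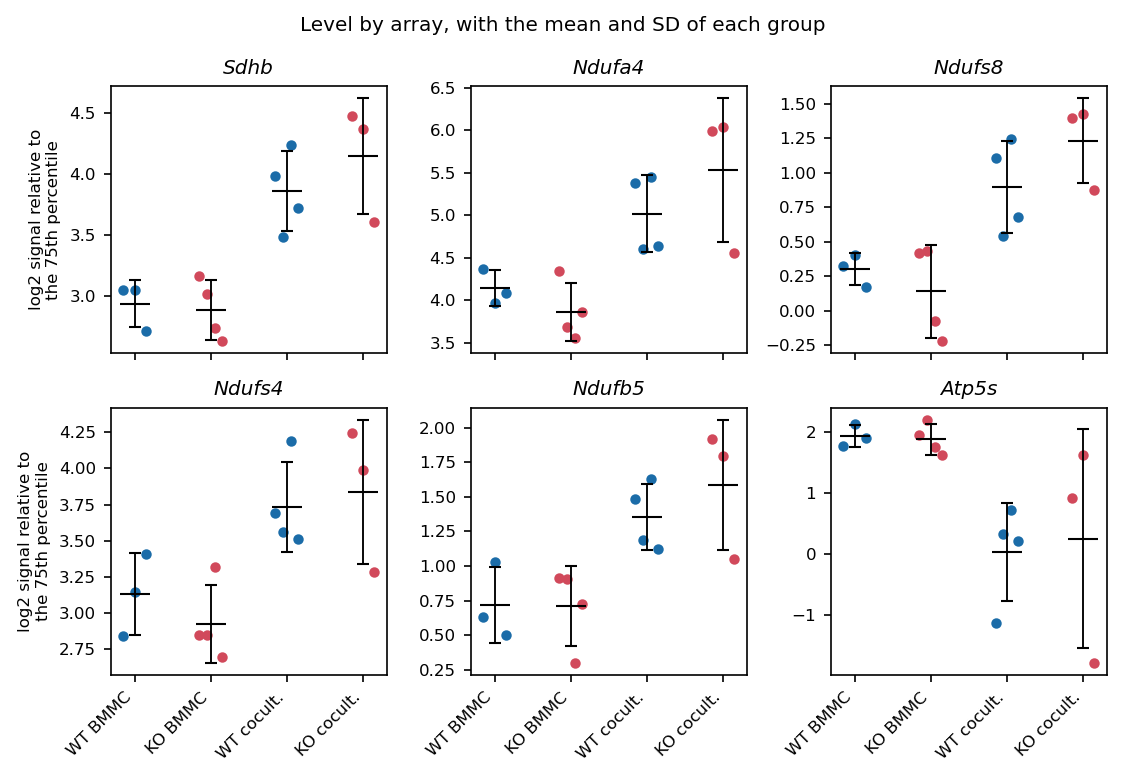
Level of Sdhb, Ndufa4, Ndufs8, Ndufs4, Ndufb5 and Atp5s on each array (points), with the mean and SD of each group, as log2 signal relative to the array's 75th percentile. The cocultured points of Sdhb and Ndufa4 lie above all BMMC points, and those of Atp5s lie below them, with a wide spread in the cocultured groups.

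In complex III, 0 of 7 genes passed in either comparison. Uqcrq, a small subunit of the complex, had changes of -0.00 and 0.87 (adjusted p = 0.116), and the core subunit Uqcrc2 had 0.13 and 0.61 (adjusted p = 0.134). Uqcrc1, the other core subunit, gave 0.07 and 0.33, and the Rieske iron-sulfur protein Uqcrfs1 gave 0.02 and 0.39. Uqcrq was at 5.30, 5.14, 5.10 and 4.55 in BMMCs labelled knockout and at 6.37, 6.1997 and 5.13 after coculture, with overlap through knockout 3.

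Complex IV holds several pairs of widely expressed and tissue-restricted isoforms, and 0 of its 14 tested genes passed. Cox4i1, the widely expressed regulatory subunit, was at 5.67, 5.495, 5.40 and 5.70 in BMMCs labelled knockout and at 6.12, 6.38 and 6.07 after coculture, with no overlap and a change of 0.63 (SE 0.22, adjusted p = 0.0711). Cox7a1, the isoform known from muscle, was at 1.40, 1.34, 0.98 and 0.48 before and 2.80, 3.15 and 0.60 after, a change of 1.14 (adjusted p = 0.173). Its arrays labelled knockout 1 and 2 stood above all others, while knockout 3 lay among the BMMCs. Cox7a2, the widely expressed isoform, had -0.24 and 0.65. Cox6a2, the muscle isoform, was low and scattered, from -4.27 to -0.42 on BMMC arrays and from -1.77 to -0.62 on cocultured arrays, with changes of 1.12 and 1.40 (adjusted p = 0.305). The widely expressed Cox6a1 gave -0.23 and 0.51. Cox6b1 gave 0.12 and 0.63, the testis isoform Cox6b2 gave -0.22 and -0.25, and Cox8a gave -0.37 and 0.38. Of the 7 genes of a muscle list, 4 to 6 were never well above background in a group, depending on the group.

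In complex V, 0 of 17 genes passed. The subunits of the catalytic head gave 0.11 (Atp5a1) and 0.01 (Atp5b) in cells labelled wild type, and 0.72 (adjusted p = 0.151) and 0.45 in those labelled knockout. The proton-carrying c subunit is encoded by 3 genes, and Atp5g1, Atp5g2 and Atp5g3 had -0.01, -0.05 and 0.19 in the label wild type and 0.62, 0.42 and 0.56 in the label knockout. Atp5s, or Dmac2l, a factor related to the synthase and not a subunit, had the lowest values of change. It was at 1.76, 2.13 and 1.91 in BMMCs labelled wild type and at -1.13, 0.32, 0.72 and 0.22 after coculture. In cells labelled knockout it went from 1.95, 2.20, 1.75 and 1.63 to 0.91, 1.62 and -1.79. Every cocultured array lay below every BMMC array. The changes were -1.90 (SE 0.65, adjusted p = 0.0731) and -1.64 (SE 0.65, adjusted p = 0.113), neither past the threshold, and its second probe gave -0.99 and -0.82.

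The members deviated together on single arrays. The median deviation of the members from their own mean over the 14 arrays was 0.74 on cocultured knockout 1, where 78 of 80 were above their mean, and 0.71 on knockout 2, where 72 of 74 were. It was -0.55 on knockout 3, where 73 of 80 were below. The same value, -0.55, was found on the BMMC array labelled knockout 4, the other array of that label on slide 4. Cocultured wild type 3 was at 0.20, wild type 2 at -0.24 and BMMC knockout 3 at -0.18, and the other arrays lay within ±0.07. Marker lists moved with this order in part. The summed mast cell level was 11.3 and 10.96 on cocultured knockout 1 and 2, 10.5 on knockout 3 and 10.2 on BMMC knockout 4. The summed fibroblast level was 4.51, 4.995 and 6.09 on cocultured knockout 1, 2 and 3, and 4.20 and 8.85 on wild type 3 and 2. Their part in the members' deviations was not tested. The 5 complexes gave like values, with 0.75, 0.45, 0.64, 0.77 and 0.74 for complexes I to V on cocultured knockout 1. The median level of the members per group was 4.09 ± 0.05 (SD, n = 3), 3.93 ± 0.20 (n = 4), 4.12 ± 0.22 (n = 4) and 4.43 ± 0.69 (n = 3). In the last group the median SD of a member was 0.76, beside 0.53 for all genes, while in the other 3 groups it was 0.14 to 0.28, beside 0.29 to 0.54.

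**Figure D3:**
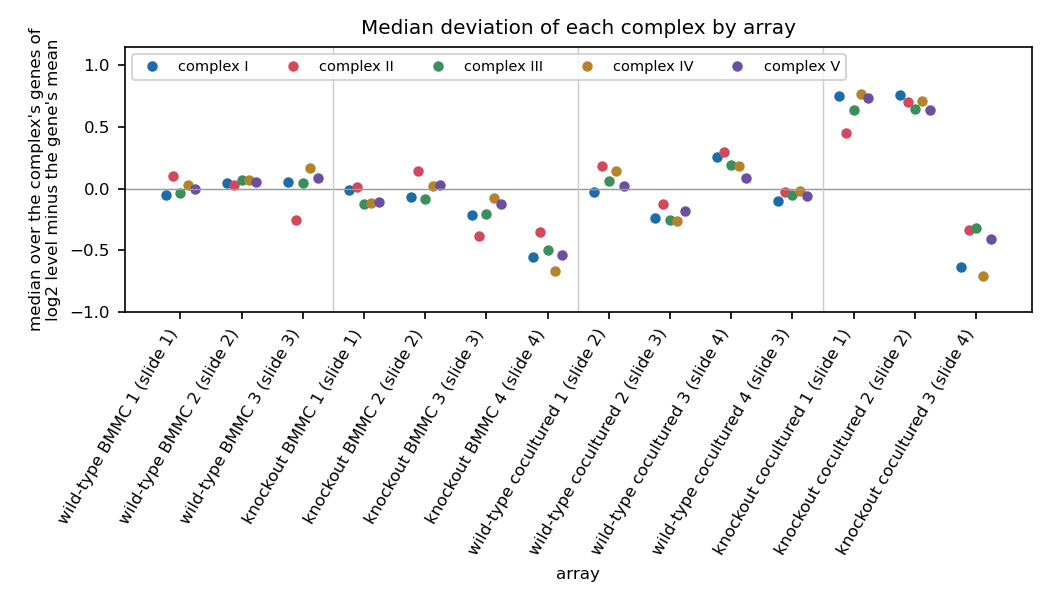
Median deviation of each complex's genes from their own means, on each of the 14 arrays, with the slide of each array. All 5 complexes are high on cocultured knockout 1 and 2 and low on cocultured knockout 3 and BMMC knockout 4.

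**Figure D4:**
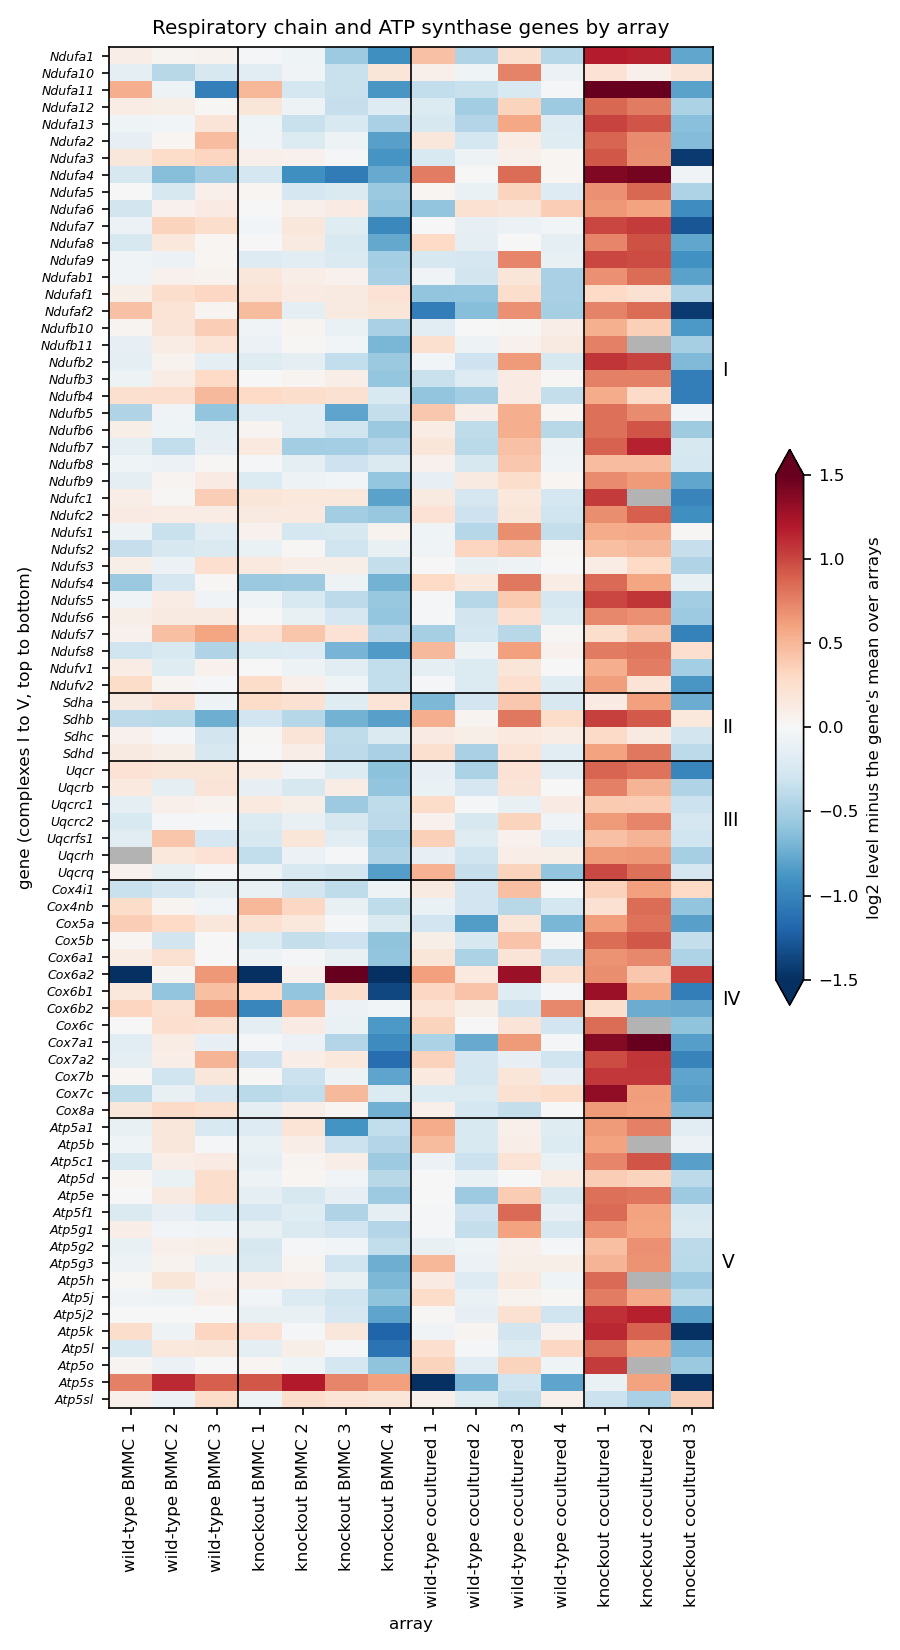
Deviation of each of the 80 tested genes from its mean over arrays (log2, red above and blue below, grey for a spot left out, with the darkest colours also holding larger deviations), with genes ordered by complex and arrays by group. Cocultured knockout 1 and 2 are red for 78 of 80 and 72 of 74 genes, and knockout 3 is blue for 73 of 80.

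The scale of the deviation depended on the scaling. On cocultured knockout 1, 2 and 3 it was 0.24, 0.47 and -0.39 with quantile normalization, 0.24, 0.42 and -0.36 with normexp background correction, and 1.004, 0.97 and -0.77 with scaling on the array median. With the authors' deposited normalized values it was 0.04, 0.46 and -0.24, and on BMMC knockout 4 it was 0.01. The 75th percentile, which sets the scale here, was 69.4, 91.1 and 148 signal units on these arrays and 176 on BMMC knockout 4. The arrays with high member levels were among those with the lowest percentiles, but other arrays did not follow this order. BMMC wild type 1, at 83.3 units, had a median deviation of -0.01, and cocultured wild type 3, at 148 units, had 0.20. The part of the percentile in the result was not tested.

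**Figure D5:**
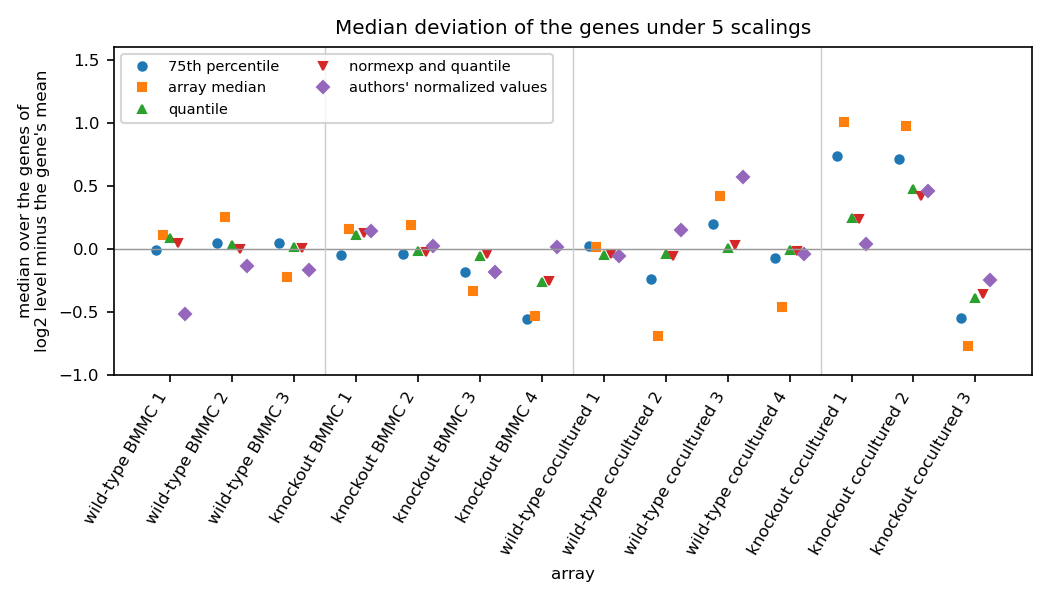
Median deviation of the tested genes on each array under 5 scalings (log2). Cocultured knockout 2 is above 0 and knockout 3 below 0 under all 5, while knockout 1 ranges from 0.04 to 1.004.

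Within slides, the median change of the members with coculture in cells labelled knockout was 0.78 on slide 1, 0.79 on slide 2 and 0.01 on slide 4, beside 0.18, 0.11 and 0.06 for all genes. In cells labelled wild type it was 0.06 on slide 2 and -0.23 on slide 3, beside 0.01 and -0.16. On slide 4 Sdhb still differed by 0.98 and Ndufs8 by 1.1, while Ndufb5 differed by 0.32.

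Without the cocultured pair of slide 4, with 2 arrays left of cocultured cells labelled knockout and 3 of those labelled wild type, 58 of the 80 genes rose in cells labelled knockout and 1 fell. The shares over all genes were then 19.1% and 11.8%. The pair was left out for its likeness to the other label, which narrows the spread within labels. These counts are therefore no independent test. The genes that rose were 29 of 38 in complex I, 2 of 4 in II, 5 of 7 in III, 9 of 14 in IV and 13 of 17 in V, with complex medians of 0.98, 0.60, 0.88, 1.09 and 0.98. Among them were Ndufa4 at 2.16 (adjusted p = 0.0006), Cox7a1 at 1.93 (adjusted p = 0.0013), Sdhb at 1.54, Ndufa13 at 1.26, Uqcrc2 at 0.92, Atp5g1 at 0.90, Sdhd at 0.90 and Cox4i1 at 0.69. Atp5sl, or Dmac2, fell by 0.55 (adjusted p = 0.0484). 6 of the 80 genes then had 1 cocultured array labelled knockout, so that this array is assumed to vary like the other groups. The 58 include 3 of them (Atp5h, Atp5o and Ndufb11), and 55 rest on both arrays, 28 of these in complex I and 11 in V. Leaving out only the array labelled knockout 3 gave 50 members that passed, Atp5o with 1 array among them, where 12.3% of all genes rose.

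In cells labelled wild type, leaving out the pair gave 1 gene that rose, Sdhb at 0.80 (adjusted p = 0.0194), and 5 that fell, beside 9.64% and 14% of all genes. Those that fell had changes of -2.13 (Atp5s), -0.95 (Ndufaf2), -0.88 (Cox5a), -0.82 (Ndufb4) and -0.78 (Ndufaf1). Cox5a is a nuclear-encoded subunit of complex IV, and Ndufaf1 and Ndufaf2 assist assembly of complex I. The median change of the members was -0.12.

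Before coculture, in BMMCs, 0 of 80 genes passed, as did 0% of all genes, and 0 had an unadjusted p under 0.05, where 169 of 16012 genes did. The median difference, knockout minus wild type as labelled, was -0.22, beside -0.09 for all genes, but 0.28 with the authors' deposited values, and 73 of the 80 were below 0. All 4 arrays labelled knockout lay below all 3 labelled wild type for 13 genes, where 3.14% of all genes did so. The genes with the lowest p of each complex were Ndufs6 at -0.36, Sdhd at -0.19, Uqcrh at -0.42, Cox6b2 at -0.55 and Atp5e at -0.39, each with an adjusted p of 1.0. Ndufs6, a subunit of the peripheral arm, was at 3.25, 3.29 and 3.29 in the label wild type and at 3.14, 3.05, 2.90 and 2.57 in the label knockout. The lowest of these came from slide 4, which held no BMMC array labelled wild type. Within slides 1, 2 and 3, the median difference of the members was -0.01, -0.07 and -0.23.

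After coculture 0 of 80 genes passed between the labelled genotypes, as did 0% of all genes, and 0 had an unadjusted p under 0.05, where 607 of 16012 did. The median difference was 0.31, beside 0.05 for all genes, but -0.07 with the authors' deposited values, and 76 of 80 were above 0. The lowest p of each complex belonged to Ndufa11 at 1.07, Sdhd at 0.39, Uqcrq at 0.54, Cox7a1 at 0.92 and Atp5e at 0.47 (adjusted p = 0.796 for the first). Ndufa11, a membrane subunit near the junction with complex III, was at 0.70, 0.73, 0.83 and 1.04 in the label wild type and at 2.83, 2.60 and 0.26 in the label knockout. The median difference was 0.71 on slide 2 and -0.79 on slide 4, so the slides gave opposite directions. Without the pair of slide 4, 46 of 80 genes were higher in the label knockout, beside 16% of all genes, and the median difference was 0.84. Of the 46, Atp5o rests on 1 array of that label. The 46 were 25 of 38 in complex I, 2 in II, 5 in III, 6 in IV and 8 in V. The pair was left out for resembling the other label across all genes, members included. That choice by itself widens the difference between labels, so the count is no independent test.

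The difference between the coculture changes of the labelled genotypes, tested as an interaction, passed for 0 of 80 genes, as it did for 0% of all genes, and 0 had an unadjusted p under 0.05, where 131 of 16012 did. The median was 0.48, beside 0.14 for all genes, but -0.35 with the authors' deposited values, and 75 of 80 were above 0. The lowest p of each complex belonged to Ndufs5 at 0.91, Sdhd at 0.58, Uqcrq at 0.87, Cox6a1 at 0.74 and Atp5e at 0.86 (adjusted p = 0.994 for the first). Without the pair, 36 of 80 genes passed with a positive difference, beside 9.06% of all genes. They were 21 in complex I, 0 in II, 4 in III, 5 in IV and 6 in V. Cox7a1 had 2.28 (adjusted p = 0.0104) and Ndufa13 had 1.57 (adjusted p = 0.0078), while Sdhb, with 0.74 (adjusted p = 0.131), did not pass. Leaving out the pair, chosen for its likeness to the other label, favours such a difference, so these calls are no independent test.

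Other mitochondrial genes were read as fixed lists, whose counts stand beside 6.02% of all genes that rose in the label wild type and 7.78% in the label knockout, or 9.64% and 19.1% without the pair. Of all genes, 6.87% fell in the label wild type and 6.5% in the label knockout, or 14% and 11.8% without the pair. No difference between lists was tested. Of the mitochondrial ribosomal proteins, which make the translation machinery for mitochondrial DNA, 1 of 75 rose in cells labelled wild type (Mrps6 by 1.25) and 3 of 75 in those labelled knockout, among them Mrps6 by 1.58 and Mrpl54 by 1.097, with medians of -0.08 and 0.40. Without the pair, 42 of 75 rose in the label knockout, with a median of 0.76, and in the label wild type 1 rose and 7 fell, where 14% of all genes fell. Their median deviation was 0.58, 0.68 and -0.28 on cocultured knockout 1, 2 and 3, the same order of signs as the respiratory genes. Of the 18 import genes, 0 and 3 rose, with Timm17a by 1.31 and Timm10 by 1.002 in the label knockout, and without the pair 10 rose there. Of the 14 carriers and porins, 1 and 4 rose, and 7 in the label knockout without the pair. The porin Vdac2 rose in both, by 1.38 and 1.55.

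Of 28 genes for cytochrome c, assembly factors and neighbouring respiratory proteins, 0 and 2 rose, Ttc19 by 1.74 and Cycs, cytochrome c itself, by 1.41 in the label knockout. Without the pair, 11 rose in the label knockout and 5 fell in the label wild type. Of 22 citric acid cycle and pyruvate dehydrogenase genes, Pdk1, the kinase that inactivates pyruvate dehydrogenase, fell in both, with changes of -3.78 and -5.02, and Mdh2 rose by 1.31 in the label knockout. 2 of the 22 rose in the label knockout with all arrays, and 12 without the pair. Of 21 regulators of mitochondrial biogenesis, Ppargc1b, a coactivator of respiratory genes, fell in both, with -2.08 and -1.96. Esrra, a nuclear receptor that it works with, fell by 0.99 in the label wild type, and Gabpb1, the partner of GABPA, rose by 1.16 in the label knockout. Without the pair, 3 of the 21 rose and 3 fell in the label knockout, and 1 rose and 6 fell in the label wild type. Of 21 glycolysis genes, 7 fell and 1 rose in the label wild type and 4 fell in the label knockout, with medians of -1.04 and -0.54. The enzyme genes Pfkl (-3.18 and -3.08) and Aldoc (-2.88 and -3.03) fell in both. Without the pair of slide 4, glycolysis had 12 that fell and a median of -1.23 in the label wild type, and 4 that fell and a median of -0.14 in the label knockout.

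For 24 of the members more than 1 probe passed the filter. Of the 29 second probes, 25 gave a coculture change within 0.5 of the main probe in the label wild type and 21 in the label knockout. The 2 probes of Ndufa11 gave -0.05 and -0.05, and 1.08 and 1.003. The second probe of Ndufs4 was well above background on 1 array and bears on nothing here.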

How the data were processed

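RNA of 14 samples (450 ng each) was amplified and labelled with Cy3 for 1-colour Agilent arrays, per the labels' protocols. The scanner files were extracted with Agilent Feature Extraction 9.5.1.1, per the file headers, and hold the processed signal intensity of each spot, background-corrected by that software. The authors also deposited a table of normalized values, linear intensities with the scale not stated, which served as an alternative with a floor of 1 before log2. Another 28 per-sample columns of the deposited tables were not used.

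Outlier spots (74 to 326 per array) were left out, the log2 signal was set relative to each array's 75th percentile, and a probe was kept when well above background on 3 arrays or more. This left 23616 probes and, by highest mean, 16012 genes, fitted in R 4.3.3 with limma 3.58.1 (4 groups, empirical Bayes, Benjamini-Hochberg, 0.05). The fit was tested on simulated data with independent noise for each gene. Such data lack the deviations that members shared on single arrays, so this does not bear on the calls here. Gene names come from the array files. The number of arrays limits the precision. Genes named with values were, per complex and comparison, up to 4 past the threshold or else the one with the lowest p, fixed isoform sets and core subunits, and up to 2 of each other list; Atp5sl, Ndufb4, Ndufaf1, Ndufaf2 and Cox5a in the label wild type, and genes named without the slide 4 pair, were chosen after values were seen. The members and lists were chosen with earlier results of these data known.

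Same-numbered BMMC arrays of the labelled genotypes correlated at r = 0.20, 0.50 and 0.49 in their deviations. Each pair also shared a slide, so pairing by number and by slide cannot be told apart. The main fit used neither. Other same-numbered pairs gave -0.54 to 0.12, with -0.54 for the cocultured pair that shared slide 4. BMMCs and cocultured cells labelled knockout also shared a slide for numbers 1 and 2, at r = -0.03 and 0.09.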

Additional observations from a re-analysis of the deposited data

Results flagged for a closer look

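Of 86 values tested for a distant array, in groups of 4 arrays, 3 stood apart from the rest of their group. This is fewer than the about 1 in 20 that chance alone gives. Cox6a1, the widely expressed subunit of complex IV, was at 7.003 on the BMMC array labelled knockout 4, where the other 3 arrays lay between 7.48 and 7.56. On that array 73 of 80 members were below their own mean, with a median deviation of -0.55. Sdha was at 1.49 on the BMMC array labelled knockout 3, where the others lay between 1.88 and 1.96. The median level of complex I was 4.19 on the cocultured array labelled wild type 3, where the others lay between 3.64 and 3.70. That array belongs to the slide 4 pair described above.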

How the results depend on the processing

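Of 2240 values of named genes under other settings, 2087 stayed on their side of the threshold, 83 gained a call and 70 lost one. In 111 of them, 31 with the authors' deposited values, the sign differed from the reported value, and the lowest adjusted p among these was 0.260. The number of members that passed in cells labelled wild type (1) was 5 with the authors' deposited values, all of which rose. It was 4 with normexp (2 rose, 2 fell) and 2 with scaling on the members' median (1 rose, 1 fell). Without slide 4 or without its cocultured pair it was 6 (1 rose, 5 fell). With the compared groups alone the 1 member was Atp5s, which fell, and Sdhb did not pass. None passed with median scaling, with no filter, with the replicate block or with the block on shared numbers. In cells labelled knockout (5) the number was 1 with the authors' deposited values, 0 with median scaling, and 3 with no filter or with the compared groups alone. There it was 2 with the replicate block, 0 with the block on shared numbers, 56 without slide 4 and 59 without the pair. Between labelled genotypes after coculture it was 53 and 46 without slide 4 and without the pair, and for the interaction 32 and 36. Without slide 4, 1576 of all 16012 genes rose and 2325 fell in the label wild type. In the label knockout 2819 rose and 1834 fell. Between labelled genotypes after coculture 2696 were higher and 1536 lower in the label knockout, and for the interaction 1261 were positive and 501 negative. Leaving out slide 4 also leaves out the pair, so these counts are no independent test.

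The median change in cells labelled wild type (-0.05) was 0.44 with the authors' deposited values, -0.23 with median scaling and 0.17 with slide as a block. The median genotype difference in BMMCs (-0.22) was 0.28 with the authors' deposited values, -0.062 with normexp, -0.065 with quantile normalization and -0.070 on the members' median. After coculture (0.31) it was 0.84 without slide 4 or the pair, 0.57 with median scaling, 0.11 with normexp or quantile normalization, 0.012 on the members' median and -0.07 with the authors' deposited values. The interaction median (0.48) was -0.35, 0.040, 0.94 and 1.06 with the authors' deposited values, the members' median, without slide 4 and without the pair, and 0.16 with normexp and 0.20 with quantile normalization. Median scaling moved the median of all genes from -0.06 to -0.23 with coculture in the label wild type and from 0.05 to 0.31 between labelled genotypes after it. The cause was not tested.

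Leaving out 1 array at a time, 0 to 3 members passed in cells labelled wild type, 0 to 50 in those labelled knockout and 0 in the other 3 comparisons, with medians of -0.12 to 0.02, 0.26 to 0.95, -0.28 to -0.10 (BMMC genotypes), 0.08 to 0.76 (cocultured genotypes) and 0.27 to 0.96 (interaction). The settings without the pair, on the members' median and with the block on shared numbers were chosen after seeing the data.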
